A study of Arabidopsis thaliana with 12 samples.

Results

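The cytosolic Hsp70 family of Arabidopsis thaliana was followed through 2 heat treatments and their combination. Its 6 members were taken by locus from the deposited counts: HSC70-1 (AT5G02500), Hsp70-2 (AT5G02490) and HSC70-3 (AT3G09440), called constitutive here, and HSP70-4 (AT3G12580), Hsp70b (AT1G16030) and HSP70T-2 (AT2G32120), called heat-induced. They are 6 of 87128 reference sequences, and all 6 were among the 26159 that passed the low-count filter. The primed heat shock group was 7 days old and received 38 °C for 2 h, 21 °C for 22 h and 43 °C for 30 min. The heat shock group was 7 days old and received 43 °C for 30 min alone. The priming group was 6 days old and received 38 °C for 30 min, and the control group was 6 days old and received no heat. All 4 groups were whole wild-type Col-0 seedlings in shaken liquid culture, with 3 libraries each of strand-specific total RNA after ribosomal RNA depletion. The general protocol gives 2 h for the heat treatments where the group labels give 30 min. No label says that the replicates were separate cultures, and the p-values below cover only the variation among the libraries.

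Hsp70 proteins bind exposed hydrophobic stretches of unfolded proteins and release them in a cycle driven by ATP. J proteins (Hsp40) deliver clients and stimulate ATP hydrolysis, and nucleotide exchange factors reset the cycle. In plants the cytosolic family has heat shock cognate (Hsc70) members that are made without stress and members made mainly on heating, when heat shock factors bind repeats of the heat shock element in their promoters. Cytosolic Hsp70 also holds heat shock factors inactive and hands clients on to Hsp90.

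HSC70-1 and Hsp70-2 lie side by side on the minus strand of chromosome 5, at 553745 to 556623 and 550035 to 552827 of assembly TAIR10.1, with 917 bases between them. HSC70-3 (2902355 to 2905947) and HSP70-4 (3991117 to 3993886) lie on chromosome 3, Hsp70b on chromosome 1 (5501966 to 5504535) and HSP70T-2 on chromosome 2 (13651442 to 13653945), all on the minus strand. Hsp70b has no intron, and each of the other 5 genes has at least 1. The encoded proteins have 651 residues (HSC70-1), 653 (Hsp70-2), 649 (HSC70-3), 650 (HSP70-4) and 646 (Hsp70b), whereas HSP70T-2, a truncated form, has 563. The coding sequences of HSC70-1 and Hsp70-2 were identical at 87.2% of aligned positions, and those of HSC70-1 and Hsp70b at 73.9%. HSP70T-2 was 60.5% to 62.4% identical to the other members. The longest identical stretch between members' coding sequences was 41 bases. Words of the transcripts were compared on the same strand only, with the first transcript model of each other gene, and none of 75 bases was shared. Words of 31 bases were shared with other genes in 2.65% of HSC70-1, 3.34% of Hsp70-2 and 1.62% of HSC70-3, so the counts of these 3 are uncertain to the extent that short reads could be placed on a relative.

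Matches to the heat shock element were sought on both strands within 600 bases before each start codon. The motif was spelled GAANNTTCNNGAA for 3 units (reverse complement TTCNNGAANNTTC), and GAANNTTC or TTCNNGAA for 2 units, which also occur inside every match of 3. Matches of 3 units are shown for 4 members, because members of both classes hold them in nearly the same letters, and 1 match of 2 units is shown for Hsp70b. Capitals mark the motif, and each line reads 5′ to 3′ on the minus strand.
HSC70-1 (chr5:556553-556582): caaccatcGAACATTCTCGAAacattttaa
Hsp70-2 (chr5:552685-552714): taattacaGAACATTCTGGAAactcaagtc
HSC70-3, distal (chr3:2905893-2905922): atcgaaccGAACATTCTCGAAcctttttaa
HSC70-3, proximal (chr3:2905764-2905793): gagccatcGAACCTTCTCGAAactcgagta
HSP70-4 (chr3:3993845-3993874): ttactcgtGAACGTTCTCGAAagctctttg
Hsp70b, 2 units (chr1:5504458-5504487): cacgaccttttTTCTCGAAatgtctcgttc
The motif started 240, 141, 282, 153, 177 and 150 bases before the start codon in the order of these lines. Every site printed lies between the RefSeq gene start and the start codon. A match of 3 units was found in 4 of 6 members and in 1.39% of 27443 protein-coding genes in the same window. A match of at least 2 units was found in 5 of 6 members and in 38.4% of those genes. HSP70T-2 held neither spelling in this window. In the 250 bases before the RefSeq gene start no member matched either spelling, against 0.386% and 16.1% of protein-coding genes, and the 600-base window was chosen after that result. A match describes these letters only.

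**Figure D1:**
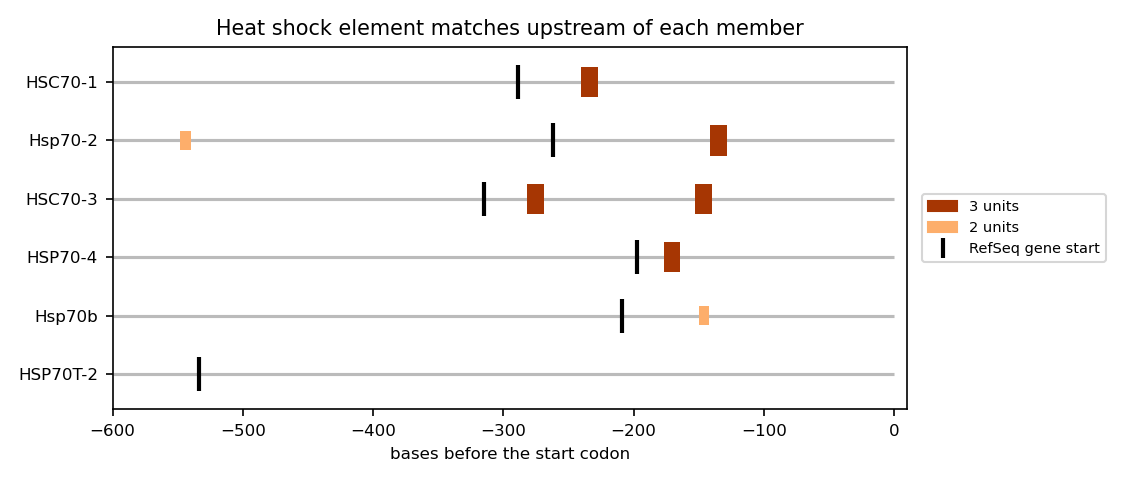
Matches to the heat shock element in the 600 bases before the start codon of each member (x axis, bases before the start codon). Dark boxes are matches of 3 units, light boxes matches of 2 units outside them, and black ticks the RefSeq gene starts. The 4 members with 3 units are HSC70-1, Hsp70-2, HSC70-3 and HSP70-4, and HSP70T-2 has no box.

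Aligned reads numbered 72075150 to 152118790 per library, and family members received 371504 to 491782 reads per primed heat shock library, 523953 to 536555 in heat shock, 2358322 to 4571254 in priming and 331983 to 408803 in control. At this depth the lowest count of any member in any library was 1109 reads, for Hsp70b in a control. Plastid transcripts took 45.7% to 51.9% of reads other than ribosomal RNA in primed heat shock, 49.8% to 57.4% in heat shock, 40.1% to 47.1% in priming and 35.5% to 41.9% in control. When nuclear loci alone were counted and scaled, all 36 log2 changes of members kept their direction and call, and none moved by more than 0.033. The 3 green-tissue and 5 root markers were all present at 1 CPM or more (reads scaled to a common library size) in every group. Summed root markers reached 704 to 730 CPM in primed heat shock, 528 to 669 CPM in heat shock, 387 to 394 CPM in priming and 484 to 660 CPM in control, and their part in the results was not tested. Most of this sum was PYK10 (661 ± 11.9 CPM in primed heat shock and 457 ± 40.2 CPM in heat shock), while NRT2.1 ran the other way, at 36.1 ± 9.76 CPM in primed heat shock and 127 ± 81.7 CPM in heat shock. Summed green-tissue markers reached 4247 to 4976, 4341 to 5363, 4125 to 5743 and 3240 to 3945 CPM in the same order. Seed markers summed to at most 19.6 CPM and flower markers to at most 0.575 CPM. In whole seedlings, fewer cells of a type and less RNA per cell cannot be told apart.

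Without heat the family was mostly HSC70-1. Read per kilobase of each sequence, so that genes can be compared, HSC70-1 stood at 564 ± 57.8 CPM per kb in controls (SD, n = 3, as for all levels). HSC70-3 at 174 ± 24.8 and HSP70-4 at 163 ± 23.5 CPM per kb followed with overlapping libraries. Hsp70-2 stood at 56.2 ± 9.73 CPM per kb, HSP70T-2 at 4.84 ± 0.133 and Hsp70b at 3.48 ± 0.195. The gene that was lowest in controls was thus a heat-induced one, although HSP70-4 of the same class stood close to the cognate HSC70-3, at 0.940 ± 0.00698 of its level within each library.

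The order of levels differed between the groups. In primed heat shock HSP70-4 led with 780 ± 91.9 CPM per kb, and HSC70-1 (356 ± 44.2) and Hsp70b (309 ± 43.9) followed with overlapping libraries. HSC70-3 stood at 207 ± 34.2, HSP70T-2 at 113 ± 5.14 and Hsp70-2, now the lowest, at 21.3 ± 3.71 CPM per kb. In heat shock HSC70-1 (759 ± 43.9) and HSP70-4 (729 ± 77.7) overlapped at the top, above HSC70-3 (440 ± 38.7), Hsp70-2 (79.6 ± 7.31), Hsp70b (39.6 ± 6.06) and HSP70T-2 (12.9 ± 1.37 CPM per kb). In priming HSP70-4 reached 7594 ± 631 CPM per kb, followed by HSC70-3 (4633 ± 279) and Hsp70b (4139 ± 384), whose libraries overlapped. HSC70-1 (2426 ± 192), HSP70T-2 (846 ± 53.2) and Hsp70-2 (387 ± 44.4 CPM per kb) came below them.

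**Figure D2:**
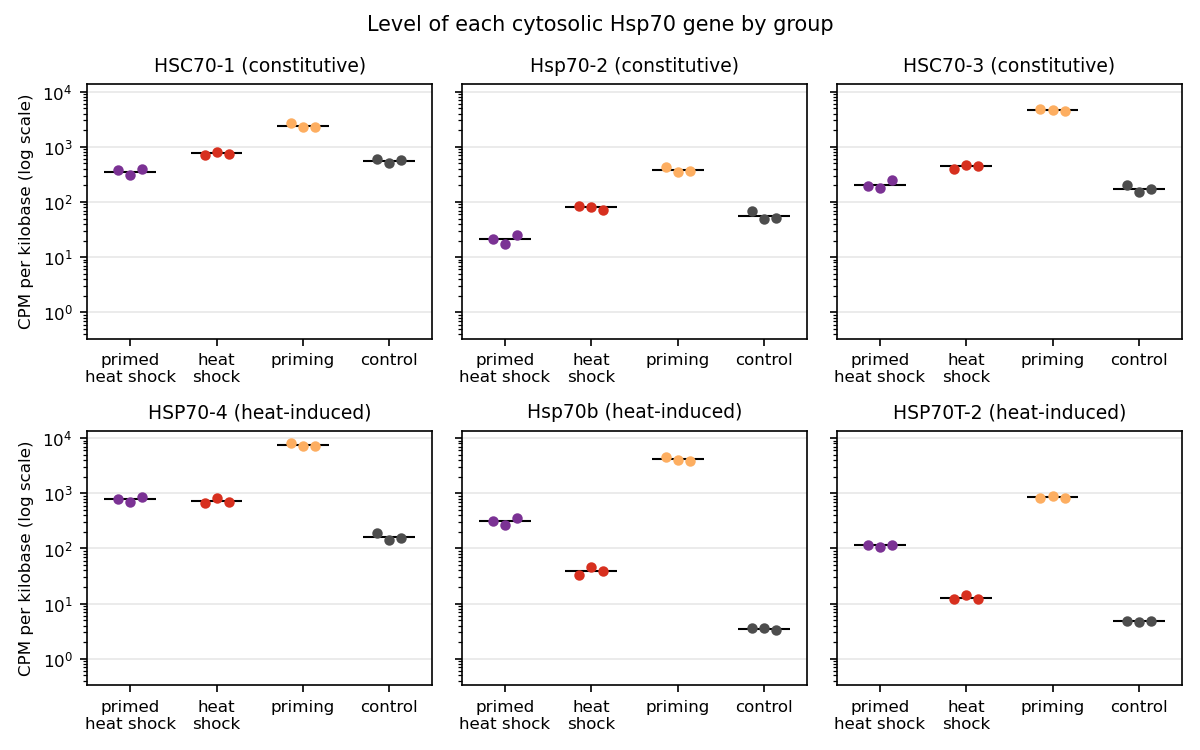
Level of each member (y axis, CPM per kilobase, log scale) in the 4 groups, with 1 point per library and a bar at the mean of 3. Every member is highest in priming, and Hsp70b and HSP70T-2 stand higher in primed heat shock than in heat shock while the 3 constitutive members stand lower.

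Priming alone, a mild heat given to 6-day-old seedlings, was compared with the control of the same age. All 6 members were higher, against 26.7% of all sequences called higher, and in all 6 the libraries of both groups did not overlap, as in 57.9% of all sequences. The members' median log2 change was 5.14, against -0.02 over all sequences. With no scaling factor 1243 sequences were called higher and 18144 lower, where the trimmed mean of M-values (TMM) factors used here gave 6990 and 7079, and the median of all sequences moved to -0.88. The members stayed higher by 1.23 to 9.34 under that setting.

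Among the constitutive members, HSC70-1, the main cytosolic cognate, had 6284, 5518 and 5475 CPM in priming and 1448, 1185 and 1385 CPM in control libraries. Its lowest priming library was above its highest control, and it rose by 2.104 ± 0.137 on the log2 scale (SE), 4.3-fold (edgeR quasi-likelihood test with Benjamini-Hochberg adjustment, adjusted p = 7.3e-09). Hsp70-2, its neighbour on the chromosome, had 1008, 816 and 849 CPM in priming and 155, 115.5 and 118 CPM in control. It rose by 2.78 ± 0.156, or 6.88-fold (edgeR adjusted p = 1.18e-09). HSC70-3 had 11245, 10405 and 10001 CPM in priming and 456, 344 and 385 CPM in control. Its rise of 4.74 ± 0.173, 26.7-fold, was the largest of the 3 cognates (edgeR adjusted p = 5.22e-12), and its level per kilobase exceeded that of HSC70-1 in every priming library. In RefSeq a gene on the other strand, AT3G09430, overlaps the span of the HSC70-3 gene over 863 bases. The counts of HSC70-3 include any reads that the sequences counted for these genes share, an extent that was not determined. AT3G09430 itself was counted at 6.68 ± 0.869 CPM in priming and 0.148 ± 0.0322 CPM in control.

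Among the heat-induced members, HSP70-4 had 18980, 16670 and 16336 CPM in priming and 431, 326 and 360 CPM in control. It was the most abundant member in each priming library and rose 46.5-fold, by 5.54 ± 0.181 (edgeR adjusted p = 1.39e-12). Hsp70b, the intronless member, had 10676, 9174 and 9083 CPM in priming and 8.38, 8.38 and 7.59 CPM in control. Its rise of 10.21 ± 0.215, 1188-fold, was the largest in the family in any of the comparisons made (edgeR adjusted p = 1.17e-14). HSP70T-2 had 1686, 1896 and 1727 CPM in priming and 10.2, 9.79 and 10.3 CPM in control. It rose by 7.45 ± 0.137, or 175-fold (edgeR adjusted p = 6.62e-15). Summed as classes and fitted with the other sequences, the heat-induced members rose by 6.20 ± 0.192 and the constitutive members by 3.21 ± 0.155.

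Direct heat shock at 43 °C was compared with the control group, which differs from it in age as well, so that age and heat cannot be told apart. All 6 members were higher again, against 27.9% of all sequences, with no overlap of libraries in 6 members and in 62.5% of sequences. The members' median log2 change was 1.38, against 0.01 over all sequences. TMM factors called 7308 sequences higher and 6398 lower, and no scaling factor 3823 and 13299. Hsp70b had 78.3, 107 and 92.1 CPM in heat shock and 8.38, 8.38 and 7.59 CPM in control. All heat shock libraries lay far above the controls, and the gene rose 11.4-fold, by 3.51 ± 0.161 (edgeR adjusted p = 3.73e-10). HSP70-4 had 1526, 1863 and 1600 CPM in heat shock and 431, 326 and 360 CPM in control, a rise of 2.16 ± 0.156, or 4.46-fold (edgeR adjusted p = 4.77e-08). HSP70T-2 had 24.9, 30.2 and 25.6 CPM in heat shock and 10.2, 9.79 and 10.3 CPM in control. It rose by 1.41 ± 0.106, or 2.66-fold (edgeR adjusted p = 7.39e-08).

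The 3 cognates were higher in heat shock by smaller steps, of 0.43 to 1.34 on the log2 scale. HSC70-3 had 911, 1087 and 1008 CPM in heat shock and 456, 344 and 385 CPM in control, and rose 2.53-fold, by 1.34 ± 0.150 (edgeR adjusted p = 3.64e-06). HSC70-1 had 1704, 1911 and 1791 CPM in heat shock and 1448, 1185 and 1385 CPM in control, an increase of 0.43 ± 0.132 (edgeR adjusted p = 0.013). Hsp70-2 had 198, 188 and 165 CPM in heat shock and 155, 115.5 and 118 CPM in control, a rise of 0.50 ± 0.146 (edgeR adjusted p = 0.00936). Both calls were lost without control replicate 2, at 0.32 for HSC70-1 (edgeR adjusted p = 0.0748) and 0.40 for Hsp70-2 (0.0527), and that of HSC70-1 also without heat shock replicate 2, at 0.38 (0.0546). With no scaling factor the change of HSC70-1 was -0.058 (edgeR adjusted p = 0.621) and that of Hsp70-2 0.036 (0.818), beside a shift of -0.48 in the median of all sequences.

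Set beside the priming group, which was a day younger, heat shock left all 6 members lower, against 29% of all sequences called lower. Over all sequences TMM factors gave 8834 higher and 7598 lower, and no scaling factor 12012 and 2848. Hsp70b was 104.5-fold and HSP70T-2 65.8-fold lower, at log2 changes of -6.71 ± 0.186 and -6.04 ± 0.128. HSC70-3 (-3.40 ± 0.162) and HSP70-4 (-3.38 ± 0.164) were lower by nearly the same amount. Hsp70-2 changed by -2.28 ± 0.153 and HSC70-1 by -1.68 ± 0.135, and the edgeR adjusted p-values of the 6 lay between 1.32e-13 and 6.83e-08.

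**Figure D3:**
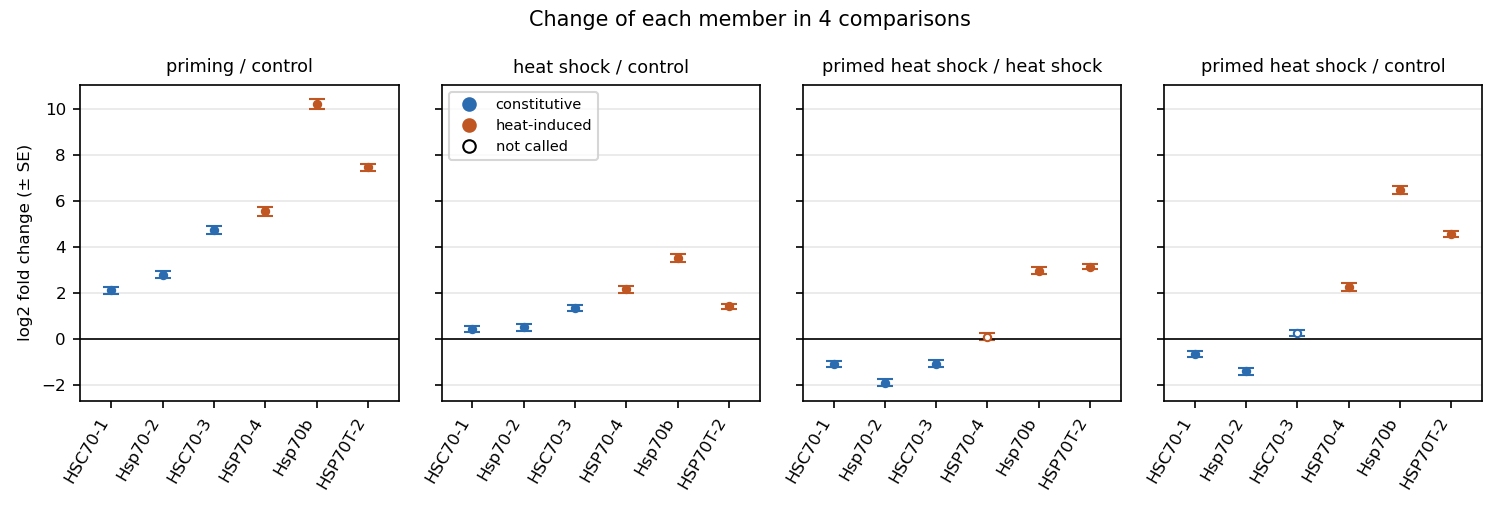
Log2 fold change of each member (y axis, ± SE from the edgeR fit of 3 libraries per group) in 4 comparisons. Filled points passed an adjusted p of 0.05 and open points did not. The 3 constitutive members lie below 0 and Hsp70b and HSP70T-2 above it in primed heat shock against heat shock, with HSP70-4 at 0.10.

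Primed heat shock against heat shock asks how an earlier mild heat and recovery bear on the answer to the same 43 °C in seedlings of the same age. Here the family divided. Of the 6 members 2 were higher, against 12.1% of all sequences, and 3 were lower, against 10.7%. With no scaling factor 2944 sequences were called higher and 1451 lower, where TMM factors gave 3161 and 2806, and the median of all sequences moved to 0.12. Libraries of both groups did not overlap in 5 of 6 members and in 42.3% of sequences, and the members' median log2 change of -0.49 lay between changes of both signs.

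Hsp70b had 729, 614 and 818 CPM in primed heat shock and 78.3, 107 and 92.1 CPM in heat shock. Each primed library was several times above each unprimed one, and the gene was 7.8-fold higher, by 2.96 ± 0.156 (edgeR adjusted p = 3.34e-09). HSP70T-2 had 242, 225 and 244 CPM in primed heat shock and 24.9, 30.2 and 25.6 CPM in heat shock, and was 8.8-fold higher, by 3.14 ± 0.112 (edgeR adjusted p = 4.32e-11). HSP70-4, the third heat-induced member, had 1774, 1573 and 1992 CPM in primed heat shock and 1526, 1863 and 1600 CPM in heat shock. These libraries overlapped, and its difference of 0.10 ± 0.149 did not pass the test (edgeR adjusted p = 0.703).

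All 3 cognates were lower in primed heat shock than in heat shock. HSC70-1 had 884, 726 and 924 CPM in primed heat shock and 1704, 1911 and 1791 CPM in heat shock, a change of -1.09 ± 0.133 (edgeR adjusted p = 2.88e-05). HSC70-3 had 438.5, 416 and 561 CPM in primed heat shock and 911, 1087 and 1008 CPM in heat shock, a change of -1.09 ± 0.149 (edgeR adjusted p = 8.83e-05). Both thus fell 2.1-fold. Hsp70-2 fell furthest, with 49.0, 40.5 and 57.6 CPM in primed heat shock and 198, 188 and 165 CPM in heat shock, a change of -1.90 ± 0.151 (edgeR adjusted p = 3.43e-07). As summed classes, the constitutive members changed by -1.13 ± 0.144 and the heat-induced members by 0.62 ± 0.153.

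Against the unheated control, which was a day younger, primed heat shock left 3 of 6 members higher, against 32.1% of all sequences, and 2 of 6 lower, against 27.2%. TMM factors gave 8394 sequences higher and 7125 lower, and no scaling factor 4834 and 10989. Hsp70b was 88.8-fold higher (log2 6.47 ± 0.185, edgeR adjusted p = 8.5e-13), HSP70T-2 23.4-fold (4.55 ± 0.120, 3.32e-13) and HSP70-4 4.78-fold (2.26 ± 0.156, 1.55e-08). HSC70-1 changed by -0.67 ± 0.132 (edgeR adjusted p = 0.000504) and Hsp70-2 by -1.40 ± 0.149 (1.46e-06). Both thus stood below the younger unheated control, and age and heat cannot be told apart here. HSC70-3, at 438.5, 416 and 561 CPM in primed heat shock and 456, 344 and 385 CPM in control, overlapped and did not pass the test (0.26 ± 0.148, edgeR adjusted p = 0.149), and with no scaling factor its change was -0.11. This comparison shares its libraries with the comparisons given before it.

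Primed heat shock also stood below priming alone in all 6 members, against 28.6% of all sequences called lower. Its seedlings were a day older, their first heat lasted 2 h against 30 min, and recovery and a second heat followed. TMM factors gave 8960 sequences higher and 7489 lower, and no scaling factor 14074 and 2397. HSC70-3 changed by -4.48 ± 0.171, Hsp70-2 by -4.18 ± 0.166, Hsp70b by -3.74 ± 0.161 and HSP70-4 by -3.28 ± 0.163. HSP70T-2 (-2.90 ± 0.111) and HSC70-1 (-2.77 ± 0.141) changed least.

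The make-up of the family differed between the groups. Heat-induced members gave 67.3%, 67.7% and 67.0% of the family's reads per kilobase in primed heat shock, 37.2%, 39.1% and 37.3% in heat shock, 63.1%, 62.6% and 62.7% in priming and 18.4%, 17.8% and 17.1% in control. The 3 libraries of a group lay within 2 percentage points of each other, and no 2 groups overlapped. The share was 29.5 points higher in primed heat shock than in heat shock and 45.1 points higher in priming than in control. An exact permutation test of 3 libraries against 3 cannot go below a two-sided p of 0.1, so these shares are given as values. HSC70-1 alone made up 19.9% ± 0.754 of the family in primed heat shock, 36.9% ± 0.836 in heat shock, 12.1% ± 0.113 in priming and 58.5% ± 1.72 in control. Hsp70b made up 17.3% ± 0.390 in primed heat shock, 1.92% ± 0.148 in heat shock, 20.6% ± 0.402 in priming and 0.364% ± 0.0501 in control.

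The family's total followed another order than its make-up. It took 0.888%, 0.820% and 0.998% of reads on nuclear genes in primed heat shock, 1.03%, 1.17% and 1.07% in heat shock, 6.53%, 6.37% and 6.36% in priming and 0.573%, 0.470% and 0.528% in control. Primed heat shock and priming thus had a close balance of the classes at totals several times apart, while primed heat shock and heat shock had close totals and different balances.

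**Figure D4:**
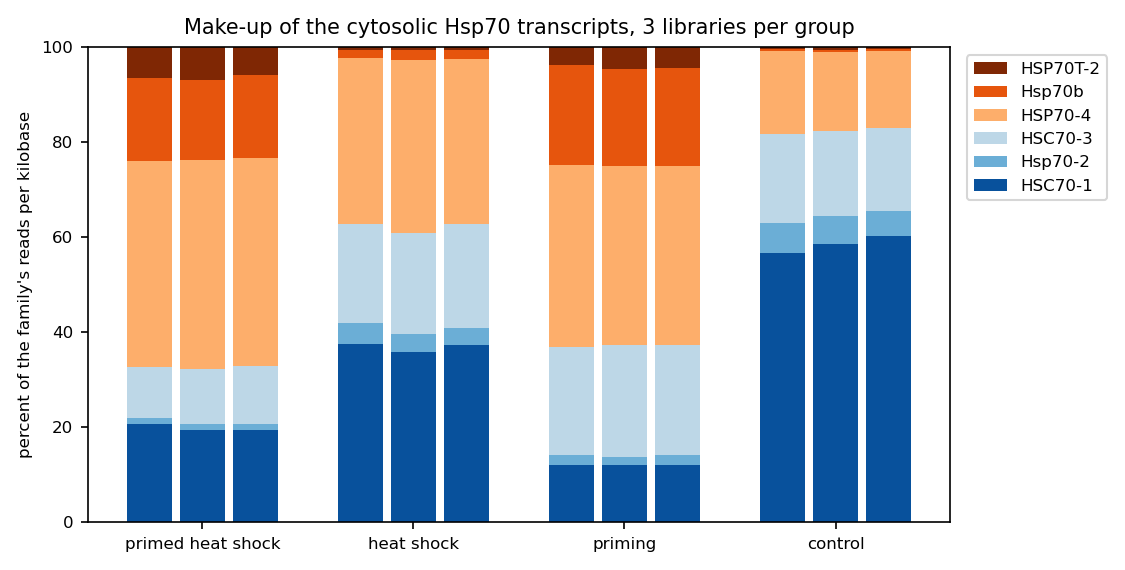
Share of each member in the family's reads per kilobase (y axis, percent), with 1 bar per library and 3 libraries per group. Orange shades are heat-induced and blue shades constitutive members. The orange share is 67.0% to 67.7% in primed heat shock, 37.2% to 39.1% in heat shock, 62.6% to 63.1% in priming and 17.1% to 18.4% in control.

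Ratios between similar members also differed by group, on levels per kilobase. HSC70-1 exceeded its neighbour Hsp70-2 by 17.5, 17.4 and 15.6 times in primed heat shock, 8.38, 9.86 and 10.6 times in heat shock, 6.05, 6.56 and 6.26 times in priming and 9.05, 9.97 and 11.4 times in control. Heat shock and control overlapped in this ratio, and primed heat shock and priming stood on either side of them. HSP70-4 exceeded HSC70-3 by 4.04, 3.77 and 3.54 times in primed heat shock, 1.67, 1.71 and 1.58 times in heat shock and 1.68, 1.60 and 1.63 times in priming, whereas in control the ratio was 0.943, 0.945 and 0.932. Hsp70b exceeded HSP70T-2 by 2.71, 2.46 and 3.01 times in primed heat shock, 2.83, 3.17 and 3.22 times in heat shock and 5.69, 4.34 and 4.72 times in priming, and in control the ratio was 0.734, 0.768 and 0.662.

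Likeness was the root mean square difference of log2 CPM over the 12 libraries after subtracting each gene's own control mean, among 3612 nuclear genes with a symbol and at least 20 CPM in 1 group, the 6 members left out. HSC70-1 was nearest to AGO2, which encodes an Argonaute protein (0.25), ZAT6, a zinc-finger factor (0.27), and GSTF8, a glutathione transferase (0.33). Hsp70-2 was nearest to ZAT6 (0.49), AGP22 (0.57) and GSTF8 (0.58), and the member HSC70-1 lay at 0.51 from it. HSC70-3 was nearest to HSP81-3, the Hsp90 gene also called HSP90.3 (0.41), NAC019 (0.48) and NF-YC2 (0.55). HSP70-4 was nearest to HSP81-2, or HSP90.2 (0.22), to DREB2A, a factor of the heat and drought responses (0.37), and to the mitochondrial Hsp70 gene MTHSC70-2 (0.53). Hsp70b was nearest to BAG6 (0.76) and the small heat shock protein genes HSP17.6II (0.91) and HSP17.6A (0.94), and HSP70T-2 to HSP90.1 (0.79), EGY3 (0.95) and GolS1 (0.96). Across the classes, HSC70-3 and HSP70-4 differed by 1.16 on this measure, and the other pairs by 2.42 to 5.61 (HSC70-1 and Hsp70b). Within the constitutive class HSC70-3 lay at 1.47 from HSC70-1 and 1.35 from Hsp70-2. Within the heat-induced class HSP70-4 lay at 3.21 from Hsp70b and 1.54 from HSP70T-2, and Hsp70b and HSP70T-2 at 1.98. The classes were thus not separate groups on this measure.

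Genes of families linked to Hsp70 were counted from lists, against the share of all sequences called. Whether each listed protein works with a cytosolic Hsp70 was not tested. That share was 26.7% higher and 27.1% lower in priming against control, 27.9% higher and 24.5% lower in heat shock against control, and 12.1% higher and 10.7% lower in primed heat shock against heat shock. Of 10 nucleotide exchange factors, 4 were higher and 2 lower in priming than in control (median log2 0.24), 6 higher and 4 lower in heat shock than in control (0.44), and 5 higher and 1 lower in primed heat shock than in heat shock (0.32). The 4 higher and 2 lower genes in priming lie near the background shares of 26.7% and 27.1%. The 1 lower gene in primed heat shock lies near the share of 10.7%. BAG6, a BAG-domain cochaperone, changed by 9.80 ± 0.235 in priming against control and by 1.30 ± 0.163 in primed heat shock against heat shock. FES1A, which protects cytosolic Hsp70 from degradation, changed by 7.18 ± 0.160 and 0.72 ± 0.123 in the same comparisons. The count of 2 lower genes in priming was 1 without priming replicate 2 or 3. The lower gene in primed heat shock was not called without heat shock replicate 3 or primed heat shock replicate 1.

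Of 10 cytosolic J proteins, 4 were higher and 2 lower in priming against control (median 0.15), 3 higher and 1 lower in heat shock against control (0.03) and 1 higher and 1 lower in primed heat shock against heat shock (0.09). The background was 26.7% higher and 27.1% lower in priming against control, and 27.9% and 24.5% in heat shock against control. In primed heat shock it was 12.1% and 10.7%, so none of these pairs of counts is a result about these genes. The lower gene in the last comparison, AT1G10350, stood at 2.96 ± 0.259 CPM in primed heat shock and 4.43 ± 0.113 CPM in heat shock. The higher gene, AT2G20560, stood at 168 ± 18.5 CPM in primed heat shock and 118 ± 11.9 CPM in heat shock, and at 1436 ± 116 CPM in priming and 18.8 ± 1.51 CPM in control. ATJ3, a farnesylated J protein, stood at 1521 ± 98.0 CPM in priming and 165 ± 11.1 CPM in control. Without heat shock replicate 2, 2 J proteins were higher in primed heat shock. The number was 3 with DESeq2 and 3 with the libraries of these 2 groups alone. With no scaling factor 2 were higher and 0 lower, so AT1G10350 was not called there.

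Of 10 genes that link Hsp70 to Hsp90 or encode Hsp90 and the disaggregase HSP101, 10 were higher in priming than in control (median 3.49), where 26.7% of all sequences were. In heat shock 6 were higher than in control (0.59), against 27.9% of all sequences. In primed heat shock 5 were higher and 2 lower than in heat shock (0.14), against 12.1% and 10.7%. HOP3, an adaptor that holds Hsp70 and Hsp90 together, stood at 2157 ± 260 CPM in priming and 18.1 ± 1.27 CPM in control. The Hsp90 genes moved both ways in primed heat shock, where HSP90.1 changed by 1.25 ± 0.152 and HSP90.3 by -1.13 ± 0.132 against heat shock. The count of 2 lower genes was 1 without heat shock replicate 2 or without primed heat shock replicate 1 or 2.

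Of 10 heat shock factor genes and HSBP, a heat shock factor binding protein, 8 of 11 were higher and 1 lower in priming against control (median 3.60), against 26.7% and 27.1% of all sequences. In heat shock against control 7 were higher and 2 lower (0.79), against 27.9% and 24.5%, and in primed heat shock against heat shock 6 were higher and 2 lower (0.31), against 12.1% and 10.7%. HSBP was among the 8 higher in priming (0.71 ± 0.102) and the 2 lower in heat shock (-0.46 ± 0.103), and was not called in primed heat shock against heat shock (0.19 ± 0.103). HSFA1E stood at 18.4 ± 1.34 CPM in primed heat shock and 2.30 ± 0.314 CPM in heat shock, and HSFB2A at 112 ± 9.22 and 48.1 ± 2.98 CPM in the same groups. HSFA7B stood at 6.62 ± 1.02 CPM in primed heat shock and 2.20 ± 0.250 CPM in heat shock. The 2 lower factors were HSFA2, at 60.5 ± 11.4 CPM in primed heat shock and 189 ± 23.0 CPM in heat shock, and HSFA7A, at 115 ± 15.7 and 239 ± 40.7 CPM in the same groups. The 1 lower factor in priming, HSFA1A (-0.28 ± 0.097), was not called without control replicate 1 or 2 or without priming replicate 1 or 2.

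Hsp70 genes outside the cytosolic set of 6 were counted as well, 12 in all with 11 tested. In priming 10 were higher than in control (median 2.20), against 26.7% of all sequences. In heat shock 5 were higher and 4 lower (0.15), against 27.9% and 24.5%, and in primed heat shock 4 were higher than in heat shock (0.02), against 12.1%. The 4 were CPHSC70-1 of the plastid (2.22 ± 0.094), HSP70-16 (1.36 ± 0.092), BIP1 of the endoplasmic reticulum (1.16 ± 0.108) and HSP70-17 (0.97 ± 0.101). No gene of this list was called lower there. With upper-quartile scaling factors, with DESeq2 or with the libraries of these 2 groups alone, 1 was lower. The untested gene, ERD2 (AT1G56410), is a further cytosolic Hsp70, with 6 reads in primed heat shock replicate 1 and 0 reads in the other 11 libraries. Left unscaled, 2 of 11 of these Hsp70 genes, 4 of 10 J proteins and 7 of 10 exchange factors were lower in priming than in control. So were 1 of 10 genes of the Hsp90 link and 3 of 11 genes of the heat shock factor list. Of all 26159 sequences, 18144 were lower and 1243 higher there. In heat shock against control, unscaled counts gave 3 of 11 of these Hsp70 genes higher, 6 of 10 J proteins lower and 3 of 10 genes of the Hsp90 link lower. In that comparison 3823 of all sequences were higher and 13299 lower without scaling. These unscaled counts are not read as results about the lists.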

How the data were processed

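Whole-seedling total RNA was sequenced in 12 libraries, 4 groups of 3. The deposited files hold raw read counts, 1 per reference sequence, in an index-summary layout that counts mates singly. Bowtie2, SAMtools and DESeq2 were used by the authors with genome build TAIR10, per the submitters' processing notes. Versions, the role of each tool and a strand setting are not given in the sources used here. Reads that match several members were placed by the authors' alignment. Without the strand setting, reads of a gene and of an antisense partner cannot be told apart. Every value column was used, and 17 ribosomal RNA sequences and unaligned reads were left out throughout. Groups and durations follow the group labels.

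Tests used edgeR 4.0.16 in R 4.3.3: trimmed mean of M-values (TMM) factors (0.648 to 1.44), a filter at a minimum count of 10 by group, a robust quasi-likelihood model over the 12 libraries, and a threshold of 0.05 on p-values adjusted by Benjamini-Hochberg across 26159 sequences, the 6 members included. CPM values carry the TMM factors. Summed classes were tested in a separate fit of the same kind, in which a summed row per class replaced the rows of the 6 members. Primed heat shock against priming was added after seeing the data, as a contrast of the same fit. DESeq2 1.42.0, Python 3.11.15, numpy 2.4.6, pandas 2.3.3, scipy 1.17.1, matplotlib 3.10.9 and Biopython 1.88 were also used. Alternatives were other scalings, filters and tools, a replicate block and leaving out each library.

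Named genes are the 6 members, up to 4 genes per list and comparison with the largest change among those called, and the 3 most alike genes per member. ERD2, HSFA7A, HSFA1A, HSBP, single root markers and the genes next to HSC70-3 and Hsp70b were named after their values were seen. Members and lists were chosen with earlier results of these data known. Coordinates, introns and sequences come from RefSeq on TAIR10.1, where all 6 loci matched. Its gene models differ from the sequences counted, and genome letters were read by coordinates of TAIR10.1 alone. Per the labels, libraries with the same replicate number were harvested on 1 date, which pairs them. Deviations of same-numbered libraries from their group means correlated by -0.08 to 0.13. Replicates differed by more than counting noise, at 10.4 to 75.9 chi-square units per degree of freedom.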

Additional observations from a re-analysis of the deposited data

How the results depend on the processing

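The 6 members in 6 comparisons gave 36 log2 changes and 504 values under 20 alternatives, of which 498 kept their direction and their side of the threshold, 4 kept the direction and lost the call, and 2 reversed. With no scaling factor, heat shock against control gave -0.058 for HSC70-1 and 0.20 for the summed constitutive members, neither called, and primed heat shock against control gave -0.115 for HSC70-3. That setting left the median of all sequences at -0.48 and -0.33 in these comparisons, and which scaling is nearer the truth was not tested. Leaving out 1 library each moved the summed constitutive members between 0.58 and 0.73 in heat shock against control and between -0.55 and -0.36 in primed heat shock against control, where the call was lost without primed heat shock replicate 2. The number of members called in heat shock against control lay between 4 and 6, and in each of the other comparisons it did not move. With the replicate block, 6 members were called in priming against control and no member's call changed in any comparison, at summed changes of 3.21 (constitutive) and 6.20 (heat-induced). Depth limited no member, and 3 libraries per group and the age difference limit the comparisons with 6-day-old seedlings.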

Other observations

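AT1G16040, whose start lies 72 bases from that of Hsp70b on the other strand, stood at 24.0, 30.5 and 33.6 CPM in priming and 3.55, 4.07 and 4.28 CPM in control (log2 2.89 ± 0.128, edgeR adjusted p = 5.88e-11). In primed heat shock it stood at 6.81, 8.15 and 7.07 CPM, against 4.42, 4.49 and 4.21 CPM in heat shock (0.75 ± 0.123, edgeR adjusted p = 0.000425). In heat shock against control its change of 0.14 ± 0.123 did not pass the test (edgeR adjusted p = 0.357), where Hsp70b changed by 3.51. It was looked at because of its position, after the values of Hsp70b were seen.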
